A study of Mus musculus with 24 samples.

Results

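The Ms4a genes encode small proteins that cross the cell membrane several times and form a family of receptors and receptor partners on blood cells. Its best known members are Ms4a1, which encodes CD20 on B cells, Ms4a2, the beta chain of the high-affinity IgE receptor on mast cells and basophils, and Ms4a3, which marks granulocyte precursors. Of the members followed here, Ms4a7, Ms4a6d and Ms4a6c are known from macrophages and monocytes, Ms4a6b from both myeloid and lymphoid cells, Ms4a8a from some activated macrophages, and Ms4a4b from T cells, where it acts on proliferation. Liver, lung, kidney and fat all hold such cells between their own parenchymal cells, and in whole tissue a higher level can come from more cells of a type or from more RNA in each cell, which these arrays cannot tell apart.

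The 10 genes Ms4a4a, Ms4a4b, Ms4a4c, Ms4a4d, Ms4a6b, Ms4a6c, Ms4a6d, Ms4a7, Ms4a8a and Ms4a14 were chosen by name, out of 22911 gene symbols that had a probe. A probe belonged to a gene when its RefSeq accession, without the version, stood under that symbol, and the brightest probe of a gene in a tissue was used. By this rule 8 of the 10 genes had a probe, and Ms4a4a and Ms4a14 matched none and have no value here. Ms4a7 and Ms4a8a had 2 probes each and the other 6 genes had 1. In the assembly GRCm38.p6 all 10 genes lie on chromosome 19. Ms4a8a stands apart at one end, and Ms4a14, Ms4a7, Ms4a4a, Ms4a4c, Ms4a4b, Ms4a6c, Ms4a6b, Ms4a4d and Ms4a6d follow each other further along, with only pseudogenes, a noncoding RNA and the protein-coding gene Gm8369 among them.

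The comparison asked how the tissues of old mice differ from those of young adults. Samples were RNA of WAT (white adipose tissue), kidney, liver and lung from untreated wild-type male C57BL/6J mice at 10 weeks (10W, young) and 90 weeks (90W, aged), with 3 samples per tissue and age and no transgene or agent in any group. The aged livers carry the numbers 1, 2 and 4, and the other groups the numbers 1 to 3. The labels do not say whether the same mouse gave several tissues, and nothing states that the numbered samples are separate animals, so p-values measure the spread between these samples. A level is the log2 of the background-subtracted spot signal after subtraction of the array's 75th percentile, so that 0 means a signal at that percentile. A change is the 90W mean minus the 10W mean on that scale, with the standard error of limma, and a gene was called when the Benjamini-Hochberg adjusted p over all entries of the tissue was under 0.05.

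Each tissue was hybridised on a slide of its own that held both ages, so tissue and slide cannot be told apart. Of the probes on each array, 58.6% to 71.1% were called well above background. The mean level of each organ's 5 marker genes was highest in that organ. Single genes could differ, as the fat gene Lep averaged 0.11 in young livers and -0.27 in young WAT. Some samples stood apart. Ngp, a granule gene of neutrophil precursors, read 5.89 in aged liver 2 against at most -2.02 in the other livers, 6.02 in aged lung 2 against at most 0.47, and 5.32 in aged WAT 3, with 1.75 in young WAT 3 and at most -5.51 in the other fat samples. Alb, the albumin gene of hepatocytes, read 6.68 in aged lung 1 and between -3.08 and 1.08 in the other lungs. Adipoq, the adiponectin gene of fat cells, read between 1.68 and 2.87 in young lungs, -1.18 in aged lung 3, and was not well above background in aged lungs 1 and 2. When arrays were scaled to their spike-in spots instead, the median change of all entries moved from -0.20 to -0.04 for liver, from -0.08 to -0.24 for lung and from -0.23 to 0.12 for kidney, and the share of calls that were higher moved from 38.1% to 76.3%, from 48.5% to 29.5% and from 32.6% to 63.7%. With another background correction (normexp) that share was 28.0% in the liver.

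Most of these Ms4a genes read higher in aged tissue. In the liver 7 of the 8 measured genes were called higher and 0 lower, against 10.5% and 17.0% of all entries tested there. In the kidney 6 were called higher and 1 lower, against 20.6% and 42.6%. Lung had 2 called higher and 0 lower (background 2.72% and 2.89%), and WAT had 1 higher and 0 lower (2.01% and 0.579%), although all 8 changes in WAT were above 0. At an unadjusted limma p under 0.05 liver had 7 higher and 0 lower, lung 3 and 1, kidney 6 and 1, and WAT 5 and 0, and the methods' t-test gave the same numbers. The shares of all entries belong to the adjusted threshold. None was taken at the unadjusted one, so unadjusted counts here and below have no background beside them. The median change over the 8 genes was 3.17 for liver, 0.92 for lung, 3.71 for kidney and 2.43 for WAT, beside medians of all entries between -0.23 and -0.05. The liver count was 7 whichever sample was left out, aged liver 2 included. The kidney count was 6, or 7 without young kidney 1 or 3, where a Ms4a8a probe not well above background in young kidneys became the brightest. The lung count fell to 0 without any 1 of the 3 young lungs and to 1 without aged lung 3, stayed at 2 without aged lung 1, and was 3 with 1 lower without aged lung 2. The WAT count fell to 0 without young WAT 3, aged WAT 1 or aged WAT 3.

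**Figure D1:**
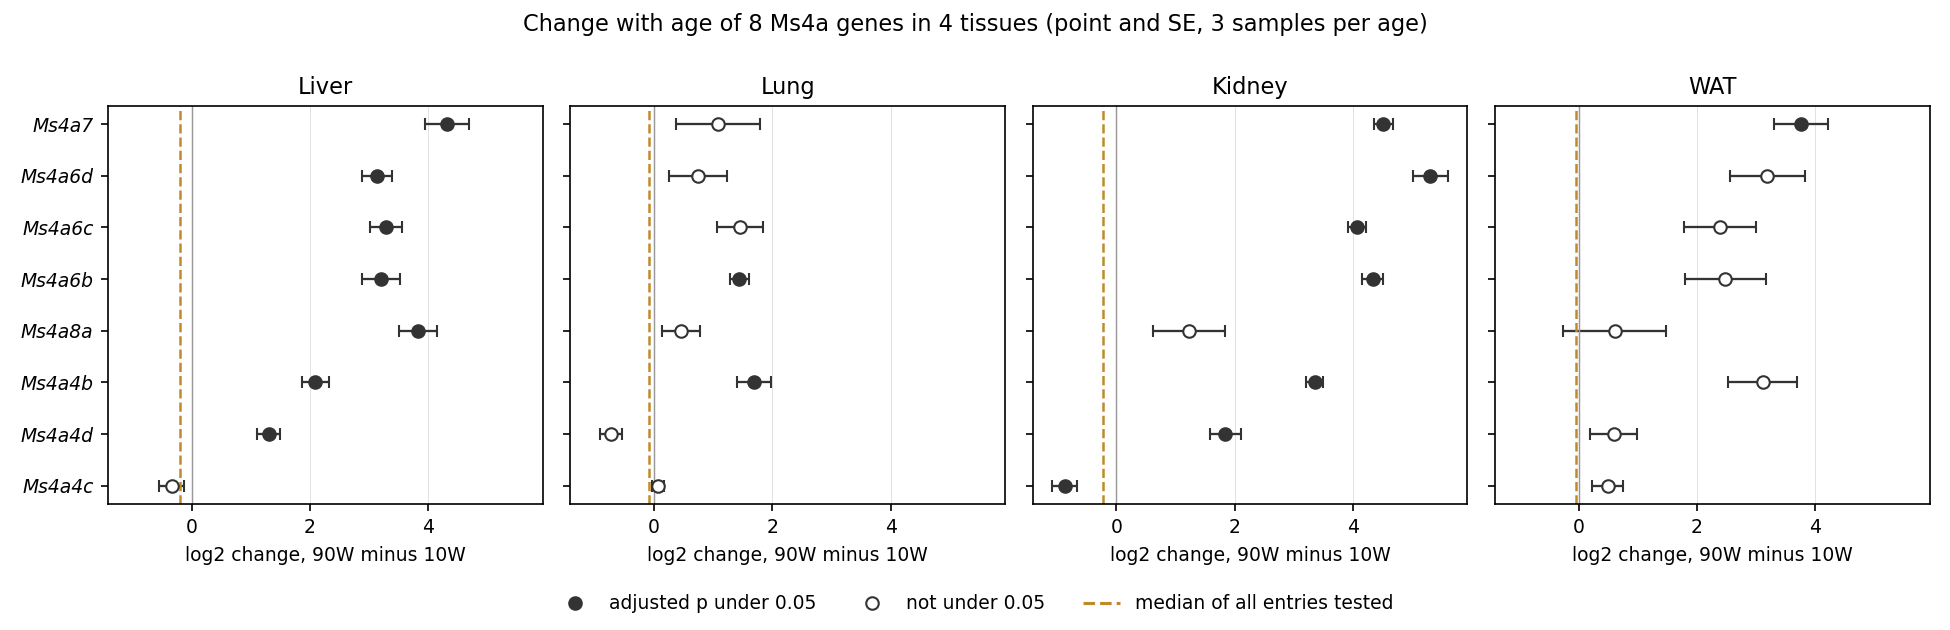
Change with age (90W minus 10W, log2 scale) of the 8 measured Ms4a genes in each tissue, as the estimate with its standard error from 3 samples per age; filled points had an adjusted p under 0.05, open points did not, and the dashed line is the median change of all entries tested. In the liver and kidney the points of Ms4a7, Ms4a6d, Ms4a6c and Ms4a6b lie between 3.13 and 5.31, in the lung between 0.74 and 1.46, and Ms4a4c stays close to 0 or below it except in WAT.

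Ms4a7, a gene of macrophages, had the highest fold changes in liver and WAT. In young livers its level was -1.45, -1.90 and -1.64, and in aged livers 1, 2 and 4 it was 3.36, 1.84 and 2.74. All aged livers lay above all young ones, and the change of 4.31 (SE 0.37, 19.8-fold, adjusted p = 0.00163) was the largest of the family there. In the kidney the young samples read -1.37, -1.31 and -1.28 and the aged ones 3.49, 3.22 and 2.87, a change of 4.51 (SE 0.16, 22.7-fold, adjusted p = 2.5e-05). In WAT it rose from 0.41, 1.71 and 1.39 to 5.49, 4.21 and 5.10. That change of 3.76 (SE 0.46, 13.6-fold, adjusted p = 0.0189) was the only call of the family in fat. The lung differed from the other tissues in that its groups overlapped. Young lungs read -0.48, -0.34 and -0.62, aged lungs 1 and 3 read 1.06 and 1.81, and aged lung 2, the sample with high Ngp, read -1.05, below every young lung. The lung change was 1.09 (SE 0.71, adjusted p = 0.361) with that sample and 1.92 (adjusted p = 0.0228) without it.

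The second Ms4a7 probe gave changes of 4.69 (liver), 0.99 (lung), 4.57 (kidney) and 3.70 (WAT), with the same calls as the first probe. It also put aged lung 2 lowest of all lungs, at -2.45, where the other lungs lay between -1.84 and 0.61.

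**Figure D2:**
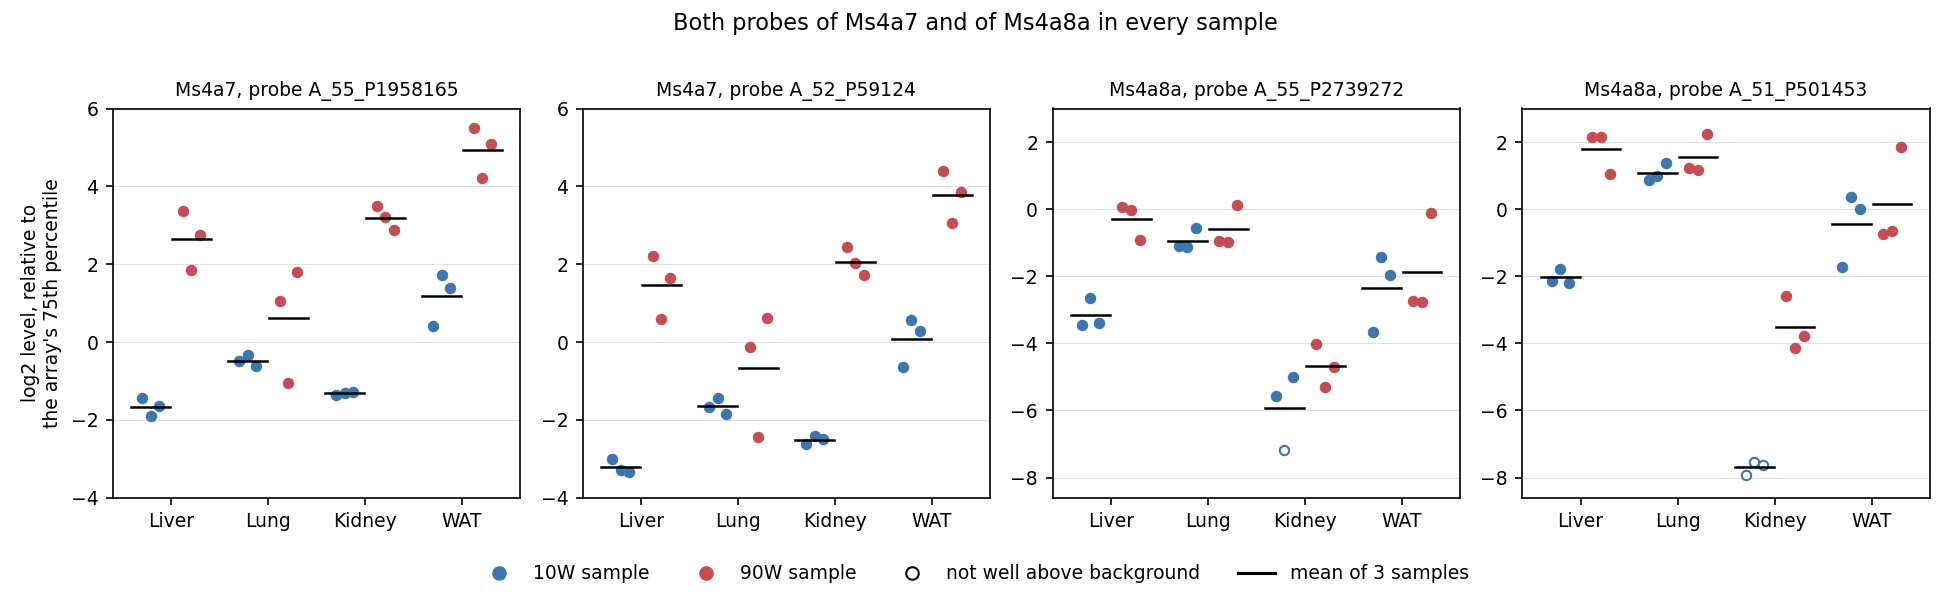
Log2 level of both probes of Ms4a7 (left panels) and both probes of Ms4a8a (right panels) in every sample, by tissue and age, with the mean of 3 samples as a line; open points were not well above background. The Ms4a7 probes show the same pattern in all tissues, whereas for Ms4a8a in the kidney one probe has only open points at 10W and the other has overlapping ages.

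Ms4a6d, Ms4a6c and Ms4a6b lie close to each other and are expressed in myeloid cells, and all of them were called higher in liver and kidney. Ms4a6d read -1.69, -1.35 and -1.48 in young livers and 1.81, 1.94 and 1.13 in aged ones, a change of 3.13 (SE 0.25, 8.76-fold, adjusted p = 0.00152). In the kidney it went from -5.34, -4.63 and -4.27 to 0.87, 0.53 and 0.29. This rise of 5.31 (SE 0.29, 39.7-fold, adjusted p = 7.58e-05) was the largest change of any measured member in any tissue. In WAT the aged samples read 3.40, 2.32 and 3.85 against -1.18, 0.91 and 0.28, and although no aged sample reached down to the young ones, the change of 3.19 (SE 0.64) had an adjusted p of 0.0654. In the lung, young samples at -0.48, -0.33 and 0.03 overlapped with aged samples at -0.03, -0.14 and 1.63 (change 0.74, SE 0.49, adjusted p = 0.367). The aged lung at 1.63 was number 3.

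Ms4a6c read -2.21, -2.33 and -1.84 in young livers and 1.17, 1.60 and 0.69 in aged ones (change 3.28, SE 0.27, 9.72-fold, adjusted p = 0.00153). Young kidneys read -3.96, -3.66 and -3.65 and aged kidneys 0.52, 0.33 and 0.09 (change 4.07, SE 0.15, 16.8-fold, adjusted p = 2.5e-05). Both tissues thus separated the ages by more than the spread within either. In the lung the ages did not overlap, with -1.54, -0.99 and -0.71 against 0.16, -0.19 and 1.16, but the change of 1.46 (SE 0.39) had an adjusted p of 0.0878. In WAT the values were -1.74, 0.06 and -0.29 against 1.79, 0.86 and 2.55, again without overlap, and the change of 2.39 (SE 0.61) had an adjusted p of 0.111. Young WAT 1 was the lowest fat sample for all 8 genes.

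Ms4a6b was the only gene besides Ms4a4b called in the lung. Young lungs read -1.72, -1.60 and -1.53 and aged lungs -0.49, -0.13 and 0.10, a change of 1.44 (SE 0.16, 2.72-fold, adjusted p = 0.0147). It was lowest in young kidneys, at -5.35, -4.97 and -4.64, and reached -0.66, -0.60 and -0.72 in aged ones (change 4.33, SE 0.18, 20.1-fold, adjusted p = 3.78e-05). In the liver it rose from -3.77, -3.49 and -4.03 to -0.89, 0.15 and -0.94 (change 3.20, SE 0.32, 9.20-fold, adjusted p = 0.00235), and the highest aged liver was number 2, which has high Ngp. In WAT it read -2.75, -0.70 and -0.86 in young and 0.87, 0.30 and 1.96 in aged samples, separated by age but not called (change 2.48, SE 0.68, adjusted p = 0.127).

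Over the 24 arrays, after each tissue's mean was subtracted, Ms4a6b and Ms4a6c had the closest pattern of any pair of members (Pearson r = 0.983), and their promoters share the longest identical stretch. This r includes the difference between ages that most members share, and Ms4a6c with Ms4a6d reached 0.976. Whether the probes read each other's transcripts was not tested. RefSeq promoter entries of GRCm38.p6 were held for 9 of the 10 genes, 10 entries in all because Ms4a7 has 2 starts, and none for Ms4a6d. Among 44 pairs of promoters, each taken as the 250 bases before the start, the longest stretch of identical bases had a median of 8, and in Ms4a6b and Ms4a6c it was 48. This run stands in capitals in both sequences, which are shown because the genes move together, and no other of 32851 promoter entries holds it.
Ms4a6b, chr19:11518309-11518558, plus strand: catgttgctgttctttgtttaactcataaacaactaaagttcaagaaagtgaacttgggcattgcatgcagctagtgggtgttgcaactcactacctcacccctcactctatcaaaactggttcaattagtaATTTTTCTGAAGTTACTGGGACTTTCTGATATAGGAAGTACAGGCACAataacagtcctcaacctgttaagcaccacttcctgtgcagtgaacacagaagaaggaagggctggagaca
Ms4a6c, chr19:11469118-11469367, plus strand: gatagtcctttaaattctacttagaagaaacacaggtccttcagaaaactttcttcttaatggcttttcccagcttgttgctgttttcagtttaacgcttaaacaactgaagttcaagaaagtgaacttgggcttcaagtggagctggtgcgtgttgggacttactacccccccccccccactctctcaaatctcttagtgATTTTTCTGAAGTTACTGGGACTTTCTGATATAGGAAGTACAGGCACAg
The run begins 118 bases before the listed start of Ms4a6b and 49 bases before that of Ms4a6c, and in the best local alignment 151 of 181 columns (83.4%) were identical. Inside it lies AGGAAGT, the letters of a purine-rich motif that ETS factors such as PU.1 bind. Searched on both strands, AGGAAGT was in 7.69% of all promoter entries, and among the members in Ms4a6b (2 places) and Ms4a6c (1 place) and in none of the other 8 entries. TGANTCA, the motif of AP-1, was in 6.75% of all entries and in those of Ms4a8a, Ms4a14 and the second start of Ms4a7. These matches describe the letters of the windows, and binding was not measured.

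**Figure D3:**
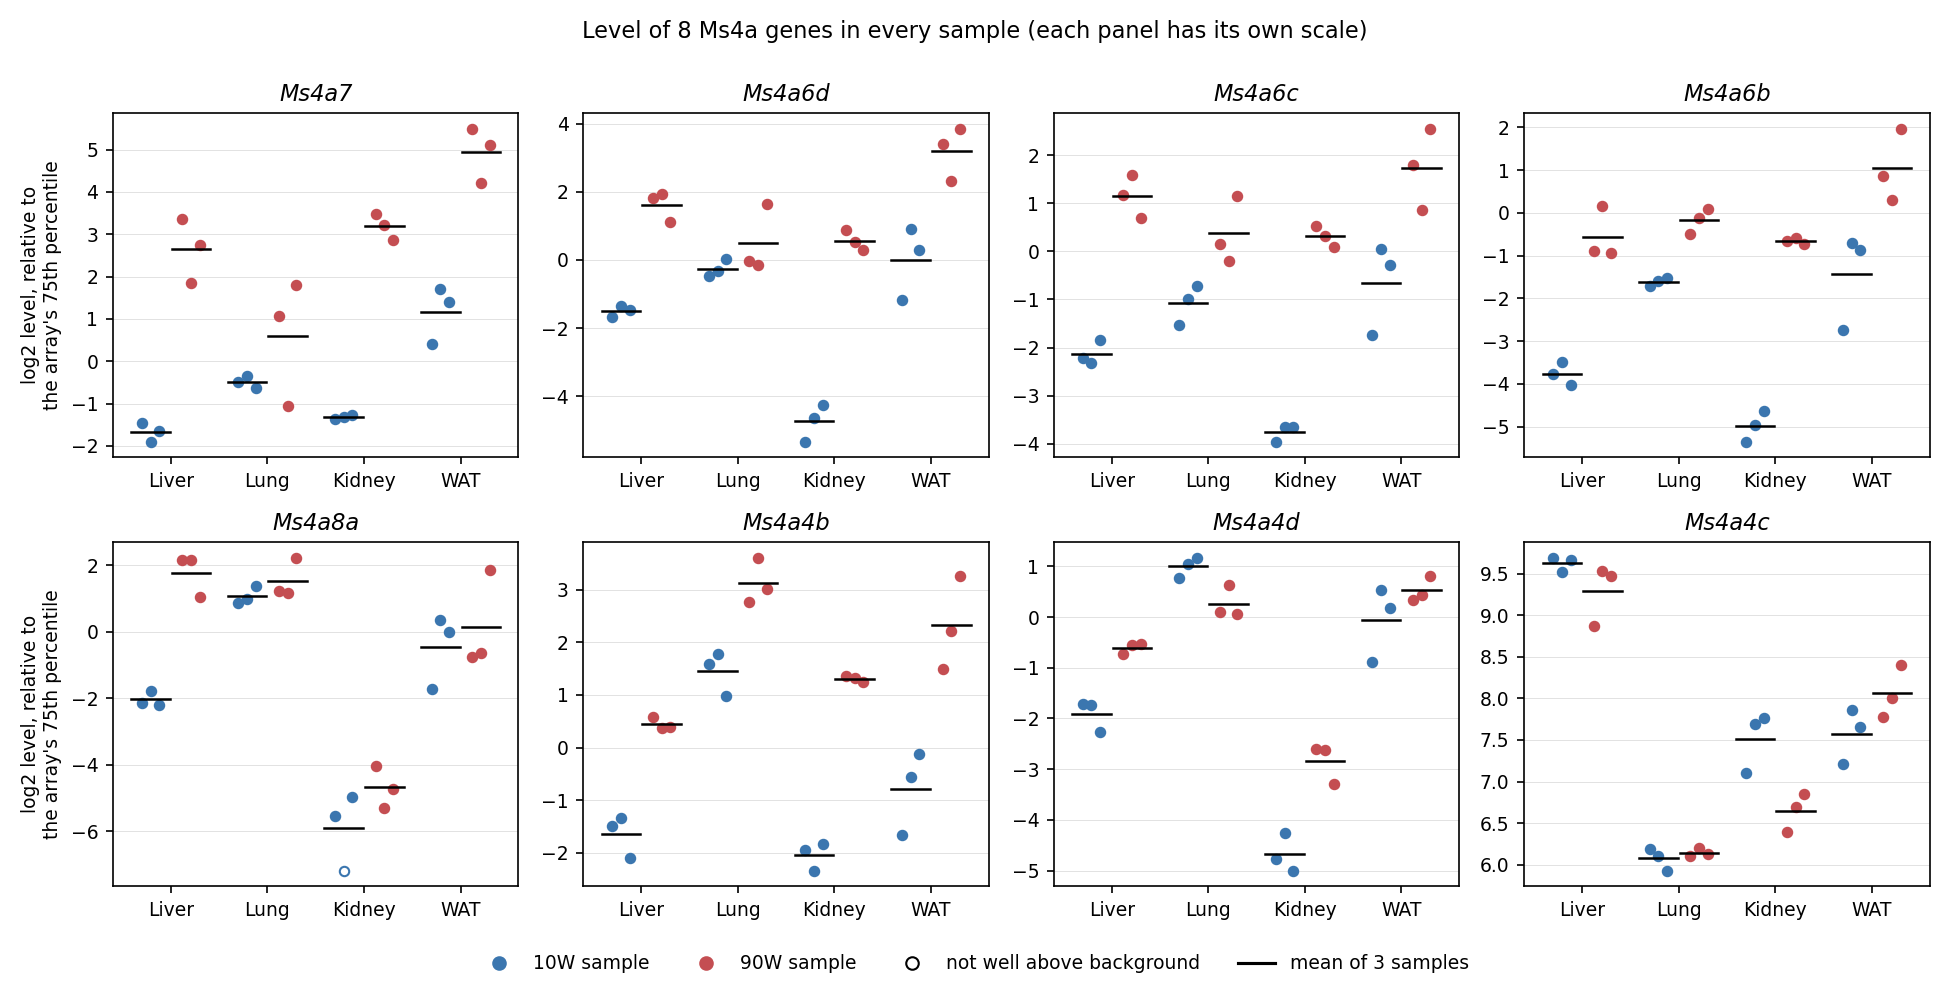
Log2 level of each of the 8 measured Ms4a genes in every sample by tissue (x axis) and age (colour), on a separate scale for each gene, with the mean of 3 samples as a line; the open point was not well above background. Blue and red points are apart in the liver and kidney for Ms4a7, Ms4a6d, Ms4a6c, Ms4a6b, Ms4a4b and Ms4a4d, and in the lung aged samples of Ms4a7 spread from -1.05 to 1.81.

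Ms4a8a rose in the liver and is uncertain in the kidney. Young livers read -2.13, -1.78 and -2.20 and aged livers 2.15, 2.15 and 1.06, a change of 3.82 (SE 0.32, 14.1-fold, adjusted p = 0.00159). Ages overlapped in the lung, with 0.88, 1.00 and 1.39 against 1.22, 1.17 and 2.23 (change 0.46, SE 0.32, adjusted p = 0.392). They overlapped in WAT too, where aged sample 3, with high Ngp, read 1.85 and the other aged samples -0.75 and -0.64, against -1.72, 0.36 and -0.01 in young fat. The WAT change of 0.61 (SE 0.87, adjusted p = 0.738) became -0.24 without aged WAT 3 and -0.02 without young WAT 1.

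In the kidney the brighter of the 2 Ms4a8a probes gave a change of 1.23 (SE 0.61, adjusted p = 0.125), from -5.56, -7.19 and -4.99 to -4.03, -5.31 and -4.72, with young kidney 2 not well above background. With the normexp background correction this change was 1.43 and was called (adjusted p = 0.00165). The other probe, the brighter one in the liver, lung and WAT, was well above background in no young kidney and in all 3 aged kidneys. Its aged values were -2.58, -4.15 and -3.78, at least 3.82-fold above the dimmest probe of the young arrays that still counted as well above background. It passed the filter only through the aged arrays, so no call was taken from it. In the liver both probes were called, with changes of 3.82 and 2.86.

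Ms4a4b, the T cell gene, was called higher in 3 tissues. Lungs carried the most at both ages, with 1.58, 1.78 and 0.98 in young and 2.77, 3.61 and 3.02 in aged samples (change 1.69, SE 0.29, 3.22-fold, adjusted p = 0.0337). Kidneys went from -1.95, -2.34 and -1.84 to 1.37, 1.32 and 1.25 (change 3.35, SE 0.14, 10.2-fold, adjusted p = 3.85e-05), and livers from -1.49, -1.34 and -2.10 to 0.58, 0.38 and 0.39 (change 2.09, SE 0.23, 4.27-fold, adjusted p = 0.00283). In WAT it read -1.67, -0.56 and -0.12 against 1.5, 2.21 and 3.27, with a change of 3.11 (SE 0.58) and an adjusted p of 0.0551. Its aged samples lay above all young samples in all 4 tissues, as did those of Ms4a6b and Ms4a6c. How many of all entries separate by age in this way was not counted.

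Ms4a4d had smaller changes, with an estimate below 0 in the lung. Its level rose in the liver from -1.72, -1.73 and -2.26 to -0.73, -0.55 and -0.54 (change 1.30, SE 0.20, 2.46-fold, adjusted p = 0.00744) and in the kidney from -4.77, -4.25 and -5.0 to -2.60, -2.62 and -3.29 (change 1.84, SE 0.26, 3.57-fold, adjusted p = 0.00162). In the lung the 3 aged samples, at 0.10, 0.63 and 0.07, lay below the young ones at 0.78, 1.05 and 1.17. The lung change of -0.73 (SE 0.19) had an adjusted p of 0.0821, which was 0.0349 without aged lung 2 (change -0.92) and 0.0441 with spike-in scaling (change -0.90). In WAT the ages overlapped (change 0.59, SE 0.39, adjusted p = 0.451).

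The Ms4a4c probe behaved unlike those of its neighbours. It read at least 5.93 in every sample, where no other measured member read above 5.49. In young livers it read 9.69, 9.52 and 9.66, in the range of the liver marker gene Ttr (9.31 to 9.82). Aged livers overlapped with these, at 8.87, 9.53 and 9.47 (change -0.34, SE 0.21, adjusted p = 0.266). In the kidney it fell from 7.10, 7.69 and 7.76 to 6.39, 6.69 and 6.85 (change -0.87, SE 0.21, adjusted p = 0.0123), the only member called lower in any tissue, and this call was lost with quantile normalization (change -0.32, adjusted p = 0.139). Lung values lay between 5.93 and 6.20 at both ages (change 0.07, SE 0.10, adjusted p = 0.701), and in WAT the change was 0.49 (SE 0.26, adjusted p = 0.354). The liver change was 0.12 under quantile normalization and the lung change -0.09 under spike-in scaling, so neither sign is settled.

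Ms4a4c and Ms4a4b lie side by side apart from a pseudogene, and their promoters share the second longest identical stretch of the 44 pairs. They are shown because similar sequences stand beside different changes of the genes' probes. Capitals mark their longest shared run, of 20 bases, which no other promoter entry holds.
Ms4a4b, chr19:11443308-11443557, plus strand: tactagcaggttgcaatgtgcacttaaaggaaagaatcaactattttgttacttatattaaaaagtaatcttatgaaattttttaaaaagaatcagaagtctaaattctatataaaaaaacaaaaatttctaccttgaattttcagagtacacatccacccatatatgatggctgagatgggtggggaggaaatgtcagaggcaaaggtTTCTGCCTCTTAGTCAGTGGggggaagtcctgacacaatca
Ms4a4c, chr19:11407411-11407660, plus strand: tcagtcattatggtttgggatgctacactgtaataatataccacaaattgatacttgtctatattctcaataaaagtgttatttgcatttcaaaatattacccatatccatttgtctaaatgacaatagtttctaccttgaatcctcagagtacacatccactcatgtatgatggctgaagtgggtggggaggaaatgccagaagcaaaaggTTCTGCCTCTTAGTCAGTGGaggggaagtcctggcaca
The aligned part covered 128 columns, of which 114 (89.1%) were identical. With the tissue means subtracted, Ms4a4b and Ms4a4c had a Pearson r of -0.177 over the 24 arrays. The sequence of the Ms4a4c probe was not used here, and whether it reads other transcripts was not tested.

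Whether the change with age differed between tissues was tested in a single limma fit of all 24 arrays over 25773 entries, with 1 probe per gene in every tissue. This fit used 1 spread per gene for all tissues and treated the arrays as independent. The F test called 7 of the 8 genes, where it called 37.5% of all entries. Ms4a4b, with changes between 1.69 and 3.35, was not called (adjusted p = 0.0511). Ms4a8a is counted by a probe that was well above background in no young kidney, and by its other probe it was not called (adjusted p = 0.122), which leaves 6. Under some of the alternatives given below, the F test calls of Ms4a4c, Ms4a6b and Ms4a6c were lost. Lung against kidney separated most members. The 7 genes other than Ms4a8a were called there (background 23.3%), with a smaller change in the lung by 4.57 for Ms4a6d (SE 0.71, adjusted p = 0.000255), by 3.42 for Ms4a7 (SE 0.75, adjusted p = 0.00343) and by 1.67 for Ms4a4b (SE 0.55, adjusted p = 0.0347), whereas for Ms4a4c the lung change was the higher by 0.94 (SE 0.30, adjusted p = 0.0300). For Ms4a8a the lung minus kidney difference was -3.74 by the first probe, whose young kidneys were not well above background, and -0.89 (SE 0.96, adjusted p = 0.551) by the other.

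Between liver and lung 4 genes were called (background 16.8%), all with the larger change in the liver: Ms4a8a by 3.36 (adjusted p = 0.0114, and 0.0789 by its other probe), Ms4a7 by 3.22 (adjusted p = 0.0068), Ms4a6d by 2.39 (adjusted p = 0.0269) and Ms4a4d by 2.03 (adjusted p = 0.00324). Kidney and WAT differed for 4 genes other than Ms4a8a (background 25.1%), namely Ms4a6d, Ms4a6b and Ms4a4d with the larger change in the kidney and Ms4a4c with the larger change in WAT. Liver and WAT differed for Ms4a8a alone, by 3.21 (adjusted p = 0.0143, background 18.9%), and for no gene when its other probe was used (difference 2.38, SE 0.96, adjusted p = 0.0887). No member was called between liver and kidney (background 9.40%), where the smallest adjusted p was 0.0601 for Ms4a6d, or between lung and WAT (background 3.24%), where it was 0.0575 for Ms4a7. At an unadjusted limma p under 0.05 these pairs of tissues gave 2 and 4 members. With samples of a number left out of every tissue at once, the F test called between 5 and 7 genes and lung against kidney between 5 and 8, Ms4a8a by its first probe counted. Counted in the same way, kidney against WAT gave 1 or 2 without 10W number 2 or 3 or 90W number 1 or 2. Liver against lung gave 2 without 10W number 2 or 3 or 90W number 2.

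**Figure D4:**
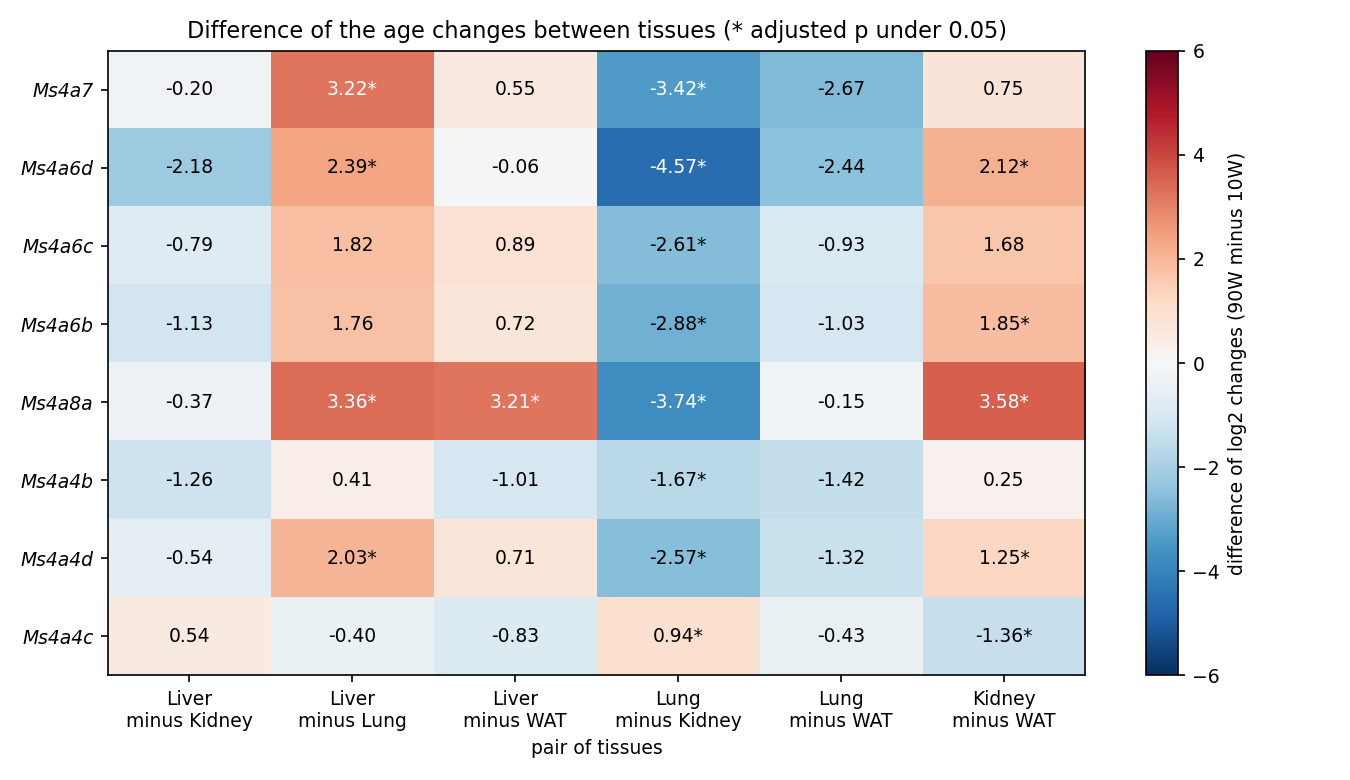
Difference of the age changes (90W minus 10W, log2 scale) between pairs of tissues for the 8 measured Ms4a genes, from a fit of all 24 arrays; a star marks an adjusted p under 0.05. Every cell of the lung minus kidney column has a star and no cell of the columns liver minus kidney and lung minus WAT has one; the Ms4a8a cells use its first probe, so those that involve the kidney depend on young samples not well above background and their stars carry no call.

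The order of levels between tissues is described without a test, because each tissue has its own slide, and each gene is compared with itself. At 10W, kidney was lowest for 6 of the 8 genes. WAT was highest for Ms4a7, at 1.17 ± 0.68 (SD, n = 3), above lung at -0.48 ± 0.14, kidney at -1.32 ± 0.05 and liver at -1.66 ± 0.23, with no overlap between neighbours. WAT and lung overlapped at the top for Ms4a6b, Ms4a6c and Ms4a6d, and with spike-in scaling lung came first for these genes, so their order is not settled. Lung was highest for Ms4a4b (1.45 ± 0.42), Ms4a4d (1.00 ± 0.20) and Ms4a8a (1.09 ± 0.27), each without overlap with the next tissue, and liver for Ms4a4c (9.62 ± 0.09).

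At 90W, WAT was highest for 5 genes. For Ms4a7 it stood at 4.93 ± 0.66, above kidney at 3.19 ± 0.31 and liver at 2.65 ± 0.76, which overlapped, and lung at 0.61 ± 1.48. For Ms4a6d it stood at 3.19 ± 0.79, liver at 1.63 ± 0.44, kidney at 0.56 ± 0.29 and lung at 0.49 ± 0.99, the last pair overlapping. Kidney thus stood below lung for both genes at 10W and above it for Ms4a7 at 90W. For Ms4a6c every tissue overlapped with the next, from 1.73 ± 0.85 in WAT down to 0.32 ± 0.21 in kidney. Lung stayed highest for Ms4a4b at 3.13 ± 0.43, with WAT overlapping at 2.33 ± 0.89.

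The genes with the most similar pattern over the 24 arrays, after tissue means were subtracted, are given as a description, since the arrays share their age groups. The ranking covered 15499 genes whose symbols do not begin with Ms4a or Tmem176, so family membership was judged by name alone. Ms4a4b was closest to Sh2d1a (r = 0.984), which encodes a signalling adaptor of T and NK cells. Next came Gm8369 (r = 0.984), the gene between Ms4a6c and Ms4a6b, and Lck (r = 0.982), the kinase of the T cell receptor. Ms4a6d was closest to Ctss (cathepsin S of antigen-presenting cells, r = 0.982), Kcnk13 (r = 0.980) and Tlr2 (a receptor for bacterial lipopeptides, r = 0.979). Ms4a7 was closest to Bcl2a1c (r = 0.981), Wdfy4 (r = 0.976) and Adgre1, the gene of the macrophage antigen F4/80 (r = 0.975). Ms4a6c was closest to Vav1, Il10ra and Naip6 (r between 0.981 and 0.982), and Ms4a6b to Sla, Ccdc88b and Themis2 (r between 0.985 and 0.987). Ms4a8a was closest to Ctsc (cathepsin C, r = 0.962), Abi3 and Pilra. This ranking, and every correlation with Ms4a8a below, used its first probe, which was well above background in no young kidney. Lower values were found for Ms4a4d, with Adamtsl1 (r = 0.929) ahead of Zfp287 and Fam76b. The nearest genes of Ms4a4c were Sema4c (r = 0.993), Ubtf and AA536875. Between members, the 21 pairs without Ms4a4c had r between 0.697 and 0.983, and the 7 pairs with it between -0.452 and -0.177.

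Of 12 other genes of the family, which include the relatives Tmem176a and Tmem176b, liver tests covered 5, lung 9, kidney 7 and WAT 7. Liver had 2 called higher and 2 lower, kidney 1 and 1, lung 0 and 0 and WAT 1 and 0, against the same backgrounds as above. At an unadjusted limma p under 0.05 the counts were 2 and 2 for liver, 1 and 3 for kidney, 0 and 1 for lung and 4 and 1 for WAT. Ms4a1, the B cell gene CD20, rose in the kidney by 2.65 (SE 0.44, adjusted p = 0.00293) and in WAT by 3.61 (SE 0.51, adjusted p = 0.0273). In the liver and lung it was low in the samples with high Ngp, at -4.10 in aged liver 2 and -1.58 in aged lung 2, against 0.36 and -1.48 in the other aged livers and 2.47 and 2.11 in the other aged lungs. Ms4a3 of granulocyte precursors was well above background in 5 samples only, at 3.52 in aged liver 2, 1.26 in aged lung 2, 2.58 in aged WAT 3, -2.29 in young WAT 3 and -4.34 in aged lung 3. Tmem176a and Tmem176b, which lie on another chromosome and are known from dendritic cells and macrophages, rose with age in livers by 1.18 (SE 0.22, adjusted p = 0.0127) and 1.19 (SE 0.19, adjusted p = 0.00867) and were called in no other tissue. Ms4a13 fell by 0.80 in livers (adjusted p = 0.0136) and by 0.72 in kidneys (adjusted p = 0.00519), and Ms4a18 fell by 0.74 in livers (adjusted p = 0.0389). With spike-in scaling no gene of this group was called lower in either tissue. Ms4a2 of mast cells had a change of 3.37 in WAT (SE 0.67, adjusted p = 0.0637).

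Many marker genes of blood cells also rose with age, and their part in the changes above was not tested. Of 8 pan-leukocyte genes, aged livers had 7 called higher, lungs 7, kidneys 8 and WAT 1. Ptprc, the leukocyte antigen CD45, rose by 2.41 in the liver (SE 0.22, adjusted p = 0.00187), by 1.34 in the lung (SE 0.10, adjusted p = 0.00944) and by 2.99 in the kidney (SE 0.14, adjusted p = 4.58e-05). In WAT its change of 2.17 (SE 0.47) was not called (adjusted p = 0.0786). Of 15 macrophage genes, aged livers had 13 called higher, lungs 0, kidneys 13 and WAT 4, with median changes of 2.11, 0.49, 3.62 and 1.76. At an unadjusted limma p under 0.05 the lung count was still 0 and the WAT count was 12. The mean level of this list was 1.59 to 1.69 in young and 3.31 to 3.58 in aged livers, and -0.32 to -0.18 in young and 2.64 to 3.16 in aged kidneys. In WAT it was 1.79 to 3.07 and 3.66 to 4.51. In the lung the ages overlapped, at 2.05 to 2.20 and 1.70 to 3.39, and the lowest aged lung was number 2, the aged lung with the lowest Ms4a7, Ms4a6d, Ms4a6c and Ms4a8a, while the highest was number 3. List and members did not always go together. Aged liver 2 had the highest mean of the list among livers (3.58) but the lowest Ms4a7 of the aged livers (1.84). It also had the highest Ms4a6d, Ms4a6c and Ms4a6b of the aged livers. Adgre1 rose by 2.54 in livers (adjusted p = 0.00155), 3.79 in kidneys (adjusted p = 5.7e-05) and 3.18 in WAT (adjusted p = 0.0448). In lungs its change of 0.81 was not called (adjusted p = 0.339).

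Of 11 T cell genes, aged livers had 8 called higher, lungs 8, kidneys 10 and WAT 7. Aged lung 2 and aged WAT 3 had the highest mean level of this list in their tissues, at 1.74 and 1.02, and also the highest Ms4a4b. They had the highest means of the NK cell list (1.4 and -0.82) and of the neutrophil list in their tissues too, so the match is not particular to T cell genes. The backgrounds of all entries given above stand beside these and the following counts. In the order liver, lung, kidney, WAT, NK cell genes were called higher for 3 of 7, 1 of 8, 4 of 7 and 0 of 8, and B cell genes for 1 of 7, 0 of 8, 4 of 7 and 4 of 8. Of 8 monocyte genes, 6, 2, 5 and 2 were called higher. Resident macrophage genes were called higher for 7 of 10, 0 of 10, 5 of 7 and 1 of 9, and Clec4f, the Kupffer cell lectin, had no probe passing the filter in kidney or WAT. Mast cell and basophil genes were called higher for 0 of 5, 1 of 7, 2 of 5 and 4 of 6. Calls lower in these lists, the pan-leukocyte, macrophage and T cell lists included, were 2 mast cell and basophil genes and 1 monocyte gene in the liver, and in the kidney 2 B cell, 2 monocyte, 1 NK cell, 1 T cell, 1 resident macrophage and 1 mast cell and basophil gene. Neutrophil genes were called higher for 1 of 7, 1 of 7, 4 of 6 and 0 of 6, with mean levels of 6.39 in aged liver 2, 7.11 in aged lung 2 and 6.14 in aged WAT 3 against at most -0.11, 2.94 and 0.32 in the other aged samples. Fibroblast genes were called higher for 5 of 8, 0 of 8, 8 of 8 and 0 of 8, with median changes of 1.15, -1.67, 2.86 and -0.32. In the lung 1 fibroblast gene was called lower, and 7 were lower at an unadjusted limma p under 0.05. Endothelial genes were called higher for 1 of 7, 0 of 7, 1 of 7 and 0 of 7, and lower for 1 in the kidney.

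**Figure D5:**
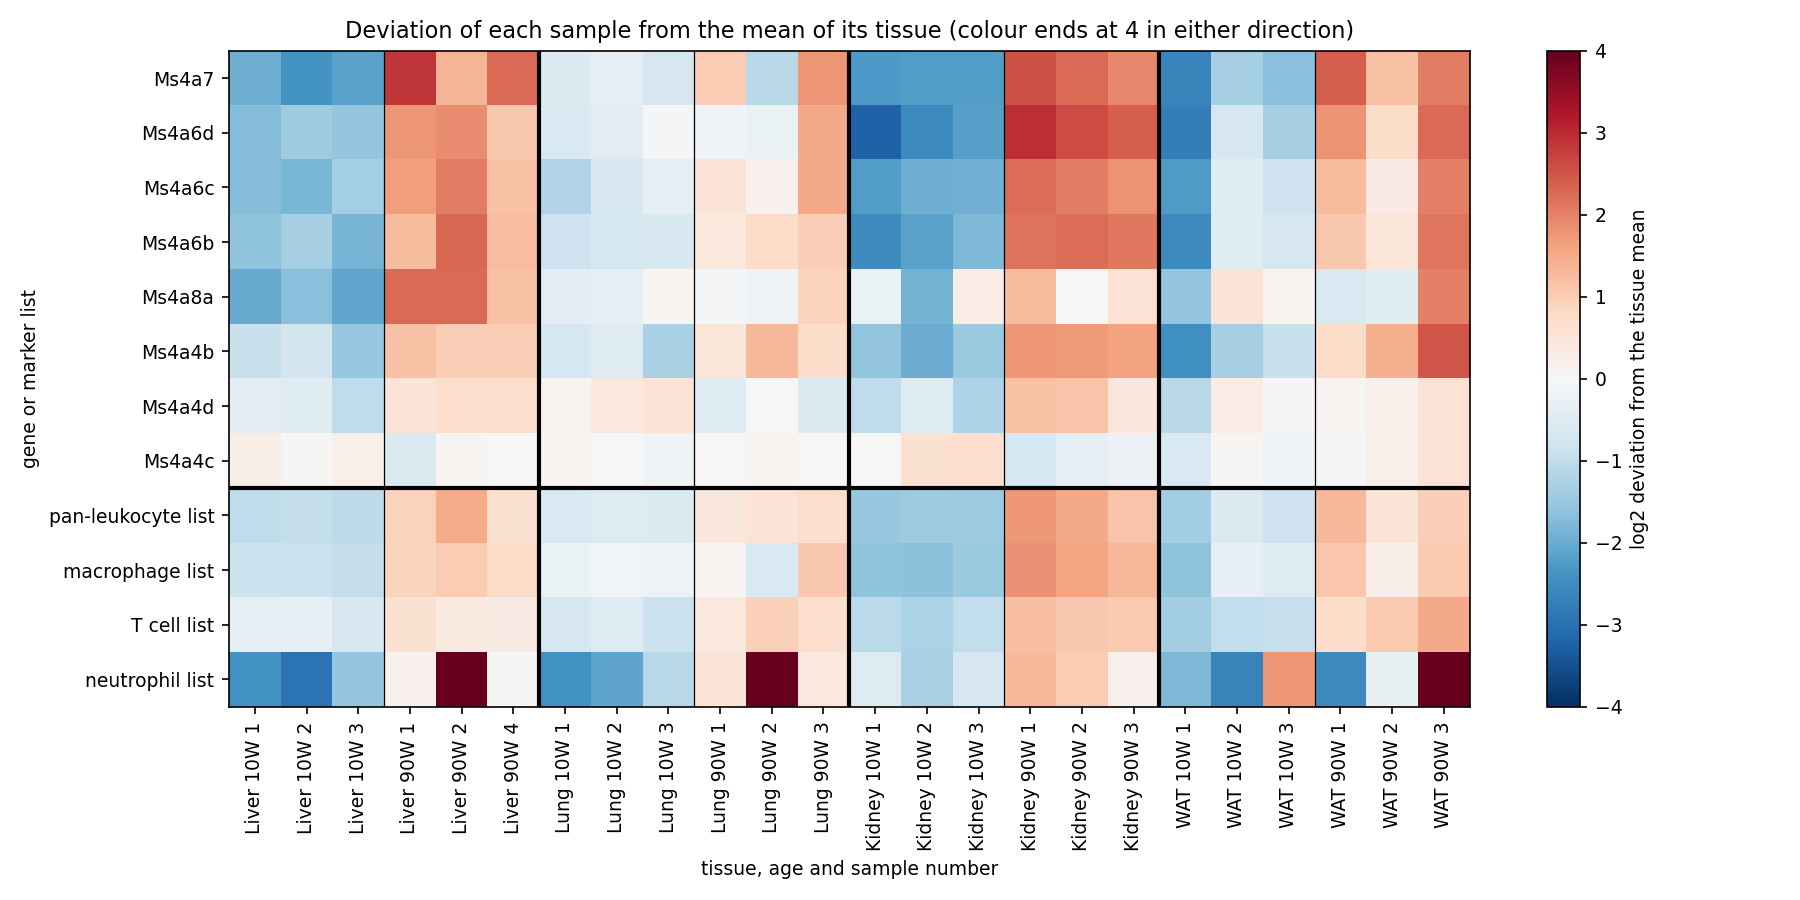
Deviation of every sample from the mean of its tissue (log2 scale) for the 8 Ms4a genes, each by its brightest probe in that tissue, and for the mean level of the pan-leukocyte, macrophage, T cell and neutrophil lists, with samples in columns by tissue and age. Aged kidneys and livers are red for most members, aged lung 3 has 7 of 8 members above the tissue mean against 4 of 8 in aged lungs 1 and 2, and the neutrophil row is darkest in aged liver 2, aged lung 2 and aged WAT 3.

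Sample by sample, the members' deviations from the tissue mean were spread widest within aged lung and within both ages of WAT. Aged lung 3 had 7 of 8 members above the lung mean, with a median deviation of 0.96, whereas aged lungs 1 and 2 had 4 of 8 each, with medians of 0.20 and 0.04. Aged WAT 3 had 8 of 8 above the fat mean (median 2.03), and young WAT 1 had 0 of 8 (median -2.36). In the liver and kidney the aged samples were closer to each other, with medians between 1.12 and 1.61 and between 1.71 and 1.95.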

How the data were processed

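RNA of 24 samples was hybridised to 1-colour Agilent arrays by the authors, who deposited scanner output of Feature Extraction 11.0.1.1 (headers name mm9), 1 file per array. The deposited intensity values were background-subtracted by that software and not normalized between arrays. Of 56605 probes, 32994 (58.3%) matched a RefSeq symbol. Outlier spots (1841 over all arrays, at most 135 on 1) were dropped, spots of a probe averaged, log2 taken and each array's 75th percentile subtracted. A probe was kept in a tissue when at least 3 of its 6 arrays called it well above background, the brightest represented its gene, and ages were compared per tissue in limma 3.58.1 (R 4.3.3), with Benjamini-Hochberg adjustment over all entries. The differences between tissues came from a fit of all 24 arrays. The number of arrays limits the precision, and an exact permutation of 3 against 3 cannot go below p = 0.1. Scripts were tested on simulated data. All members are named, other family genes where called or marking a blood cell, and the 3 most alike genes per member. Alternatives covered normexp (offset 16), quantile, median and spike-in scaling, the probe filter, the choice of probe, a replicate block, the t-test of the methods and leaving out each sample. Members and lists were chosen with earlier results of these data known. Probe sequences were not used here.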

Additional observations from a re-analysis of the deposited data

Results flagged for a closer look

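The change with age differed between the 4 tissues, by the F test of limma adjusted over all entries, for 7 members: Ms4a4d (adjusted p = 0.000806), Ms4a6d (adjusted p = 0.000852), Ms4a8a (adjusted p = 0.00203, and 0.122 by its other probe), Ms4a7 (adjusted p = 0.00479), Ms4a4c (adjusted p = 0.00894), Ms4a6b (adjusted p = 0.00914) and Ms4a6c (adjusted p = 0.0142). The first Ms4a8a value rests on a probe that was well above background in no young kidney, and no call is drawn from it. Ms4a4c lost its F test call with quantile normalization (adjusted p = 0.131), with spike-in scaling (0.109) and without 10W number 3 (0.0705). Ms4a6b lost it with normexp (0.102) and without 90W number 1 (0.0671). Ms4a6c lost it without 10W number 2 or 3 or 90W number 1 or 2 (0.0599 to 0.107). Ms4a4b gained a call with normexp (0.0369) and without 10W number 3 (0.0288). For Ms4a4d kidneys changed by 1.84 and lungs by -0.73, and for Ms4a6d by 5.31 and 0.74. Each tissue lay on its own slide, and whether the slide bears on these differences cannot be told apart from the tissue.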

How the results depend on the processing

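Over the alternatives, 477 of 520 changes of single members kept their direction and their side of the threshold, 20 lost the call, 18 gained it and 5 turned sign. Ms4a4c turned in the liver under quantile normalization (0.12, adjusted p = 0.531) and in the lung under spike-in scaling (-0.09) and without young lung 3 (-0.01), and Ms4a8a in WAT without young WAT 1 (-0.02) or aged WAT 3 (-0.24; at most 1.06, without aged WAT 1), all of them uncalled. The lung count of members called higher was 1 without the probe filter, 1 in the fit of all 24 arrays and 0 with the methods' t-test, and its count lower was 1 with spike-in scaling. The kidney count lower was 0 with quantile normalization. The WAT count was 2 with normexp, 2 with median centring, 5 in the fit of all 24 arrays and 0 with the methods' t-test. Between kidney and WAT normexp left 1 member. With Ms4a8a by its other probe, an alternative chosen after seeing the data, liver and WAT differed for 0 members and the F test called 6. With spike-in scaling the level order turned for Ms4a4d at 90W (WAT minus lung -0.42), Ms4a6b (-0.67), Ms4a6c (-0.43) and Ms4a6d (-0.59) at 10W, and Ms4a8a at 90W (liver minus lung -0.82). That scaling moved 24 of 61 counts of the cell, organ and family lists by over 1.5 times, among them pan-leukocyte genes higher in the lung (4), macrophage genes higher in WAT (2) and other family genes higher in the kidney (2). The causes were not tested.

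Leaving out 1 sample gave 0 to 3 members higher and 0 to 1 lower in the lung, 6 to 7 higher in the kidney and 0 to 1 higher in WAT. For tissue differences, with the same number left out of every tissue, the ranges were 5 to 7 for the F test, 2 to 6 for liver and lung, 0 to 1 for liver and kidney, 0 to 2 for liver and WAT, 5 to 8 for lung and kidney, 0 to 2 for lung and WAT, and 1 to 6 for kidney and WAT. These ranges count Ms4a8a by its first probe, which was well above background in no young kidney.

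Deviations of same-numbered young and aged samples of a tissue correlated between -0.169 and 0.156, and the main fits did not use the numbers as pairs. Whether same-numbered samples of different tissues came from the same mouse was not checked. With a replicate block the members called higher numbered 6 (liver), 0 (lung), 7 (kidney, Ms4a8a added) and 1 (WAT, Ms4a4b in place of Ms4a7), and lung and WAT differed for 2 members.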
